A study of Homo sapiens with 38 samples.

Results

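Of the 50652 genes listed in the BE2C count files and the 50778 listed in the palbociclib count files, 10 genes of catecholamine synthesis, storage, uptake and breakdown were taken by their symbols: TH, DDC, DBH, PNMT, SLC18A1, SLC18A2, SLC6A2, CHGA, CHGB and MAOA. All 10 passed the expression filter in each of 3 experiments. Total RNA had been sequenced from established human neuroblastoma lines, in 27 libraries deposited as 38 count files. The labels give cell lines as the source and describe their culture, but their extraction text speaks of xenografts, and which of these the RNA came from was not tested. BE2C cells had been transfected for 72 h with a control siRNA (siCtrl, 2 libraries) or with 1 of 3 siRNAs against the histone demethylase KDM6B (N1, N2 and N33, 1 library each), or exposed to GSK-J4, an inhibitor of KDM6 demethylases, at 2.5 μM for 0 h, 24 h or 48 h (2 libraries per time). Palbociclib, an inhibitor of CDK4 and CDK6, had been given for 72 h at 300 nM to CHLA15 and CHLA20 cells and at 3 μM to NB1643 and NB1691 cells, each beside its own control (2 libraries per line and condition). The paper describes 2 of the palbociclib lines as having amplified MYCN, an oncogene, and 2 as not, without naming them in its main text. Line, dose and MYCN status cannot be told apart. The 24 h and 48 h GSK-J4 libraries had only the 0 h libraries as a control, so drug and time in culture cannot be told apart either. The labels do not say that replicates came from separate cultures, so p-values measure only the spread between these libraries.

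Sympathetic neurons and chromaffin cells, and the neuroblastomas that share their lineage, make noradrenaline from tyrosine. TH is the rate-limiting enzyme, DDC forms dopamine, DBH turns dopamine into noradrenaline inside the vesicle, and PNMT methylates noradrenaline to adrenaline. The vesicular transporters VMAT1 (SLC18A1) and VMAT2 (SLC18A2) load the amines into granules whose matrix holds chromogranins A and B (CHGA, CHGB), the noradrenaline transporter (SLC6A2) takes released amine back up, and MAOA, on the outer membrane of mitochondria, degrades it.

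Summed over genes, a siRNA library had between 41227956 and 50776662 counts, a GSK-J4 library between 36186567 and 63433818, and a palbociclib library between 45457371 and 93011010. Levels are in CPM, each gene's counts relative to the library size after scaling by edgeR's TMM method, and 3 counts amounted to at most 0.0844 CPM. Such floors cover counting error only. Some libraries stood apart. The library labelled N33 had MYCN, the oncogene amplified in BE2C cells, at 466 CPM beside 1596 to 1742 CPM in the other 4 siRNA libraries. The NB1691 controls had MYCN at 86.1 and 86.5 CPM, beside 3093 and 3257 CPM in the NB1643 controls. They had the 7 noradrenergic markers summed to 400 and 431 CPM, beside 3814 to 4801 CPM in the controls of the other 3 lines, and the 6 mesenchymal markers summed to 78743 and 78960 CPM, beside 403 to 1371 CPM. FN1 (61799 CPM) and COL1A1 (14700 CPM) made up most of that sum, while COL1A2 (1.69 CPM) and PRRX1 (1.87 CPM) were low. The part of this in the NB1691 results was not tested, and the interaction of line with palbociclib and the correlations over groups are also given without these libraries below. Left out of the fit, they changed 1 call of a member within the other 3 lines, PNMT in CHLA15 (edgeR adjusted p = 0.0368 in place of 0.0607), and 10 of the 10 genes still differed between the untreated lines. The share of all genes for that count is not given here.

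In GRCh37 coordinates, the build of the submitters' processing notes, TH spans chr11:2185159-2193045, DDC chr7:50526134-50633102, DBH chr9:136501485-136524451, PNMT chr17:37824234-37826728, SLC18A2 chr10:119000604-119038941, SLC6A2 chr16:55689900-55741557, CHGA chr14:93389495-93401630, CHGB chr20:5892156-5905999 and MAOA chrX:43514155-43606064. The position of SLC18A1 is not reported here. Antisense transcripts are annotated on the other strand of DBH and DDC, and SLC18A2 overlaps PDZD8, SLC18A2-AS1 and a further lncRNA on the other strand. A gene model of unsettled type overlaps SLC6A2 on its own strand. The strand setting of the counting is not given in the sources used here, so reads from such partners cannot be told apart, and the levels of those beside SLC18A2 and SLC6A2 were not examined. The mean of DBH-AS1 in a group was at most 1.11 CPM and that of DDC-AS1 at most 0.0247 CPM.

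The RefSeq promoter table (GRCh38.p14, 250 bases before to 50 after the start) held 5 of the 10 genes: DDC, DBH, SLC18A2, CHGA and MAOA. Promoters of 4 of them are shown because they belong to genes of different behaviour under GSK-J4: DDC remained above the 0 h level at 48 h, DBH and CHGA rose and then fell below it, and SLC18A2 fell. Capitals mark the core of a cyclic AMP response element (TGACGT or its reverse complement ACGTCA, which overlap in the 8-base palindrome) and a homeodomain core (TAATT or AATTA), both searched on both strands.
DBH, chr9:133636113-133636412, plus strand: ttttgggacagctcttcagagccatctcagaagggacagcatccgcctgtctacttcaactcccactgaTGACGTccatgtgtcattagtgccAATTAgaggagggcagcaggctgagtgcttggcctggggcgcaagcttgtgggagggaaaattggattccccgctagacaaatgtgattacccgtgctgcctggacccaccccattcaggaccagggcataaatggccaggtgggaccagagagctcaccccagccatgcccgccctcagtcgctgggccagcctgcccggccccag
CHGA, chr14:92922900-92923199, plus strand: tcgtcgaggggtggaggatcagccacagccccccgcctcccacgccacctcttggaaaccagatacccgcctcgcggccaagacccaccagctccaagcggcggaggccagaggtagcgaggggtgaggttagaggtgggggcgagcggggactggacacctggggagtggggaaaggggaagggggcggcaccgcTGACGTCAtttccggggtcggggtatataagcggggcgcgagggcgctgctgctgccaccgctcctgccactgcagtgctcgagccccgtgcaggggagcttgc
SLC18A2, chr10:117240864-117241163, plus strand: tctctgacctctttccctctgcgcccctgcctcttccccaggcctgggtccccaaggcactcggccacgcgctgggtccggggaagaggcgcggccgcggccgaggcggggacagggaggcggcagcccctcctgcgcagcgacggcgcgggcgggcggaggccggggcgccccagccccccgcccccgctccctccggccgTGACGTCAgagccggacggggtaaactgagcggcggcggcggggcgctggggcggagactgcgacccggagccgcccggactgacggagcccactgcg
DDC, chr7:50565356-50565655, minus strand: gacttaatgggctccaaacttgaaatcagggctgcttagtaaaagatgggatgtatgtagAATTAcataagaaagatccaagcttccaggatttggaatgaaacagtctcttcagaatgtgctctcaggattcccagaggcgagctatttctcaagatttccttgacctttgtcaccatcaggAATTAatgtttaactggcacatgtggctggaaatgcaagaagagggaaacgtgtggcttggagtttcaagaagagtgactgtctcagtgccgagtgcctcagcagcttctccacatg
The cyclic AMP response element core began at -181 from the start in DBH, -54 in CHGA and -48 in SLC18A2, and was in 7.98% of the 35116 promoters of the table. The homeodomain core was in DBH and in this promoter of DDC, and in 24.8% of all promoters. Another RefSeq promoter of DDC (chr7:50561022-50561321) and the promoter of MAOA, not shown, held neither core. Which promoter of DDC these cells used was not tested, so the DDC match may lie in a promoter they did not use. Of the genes with the cyclic AMP response element core, DBH and CHGA were higher and SLC18A2 lower at 24 h of GSK-J4. At 48 h all of them were below the 0 h level. Whether the core had a part in this was not tested. A match is a description of the letters, not of binding.

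In untreated cells the 4 lines of the palbociclib experiment differed in all 10 genes (edgeR quasi-likelihood F test, adjusted p under 0.05), as they did in 91.2% of all 22133 genes tested, and in all 10 with the NB1691 libraries left out. The share of all genes in that smaller fit is not given here. CHLA15 and CHLA20 had the enzymes of synthesis and MAOA at high levels, NB1643 had the highest CHGB and SLC18A1, and NB1691 had the lowest TH, DDC, SLC6A2 and MAOA. Per length, as RPKM with the GENCODE exon lengths of GRCh37, the highest member was DBH in CHLA15 (248 ± 6.68 RPKM, SD, n = 2) and CHLA20 (219 RPKM), CHGB in NB1643 (281 RPKM), and CHGA in NB1691 (64.0 RPKM) and in BE2C at 0 h (760 RPKM). The plot of untreated levels shows these orders.

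**Figure D1:**
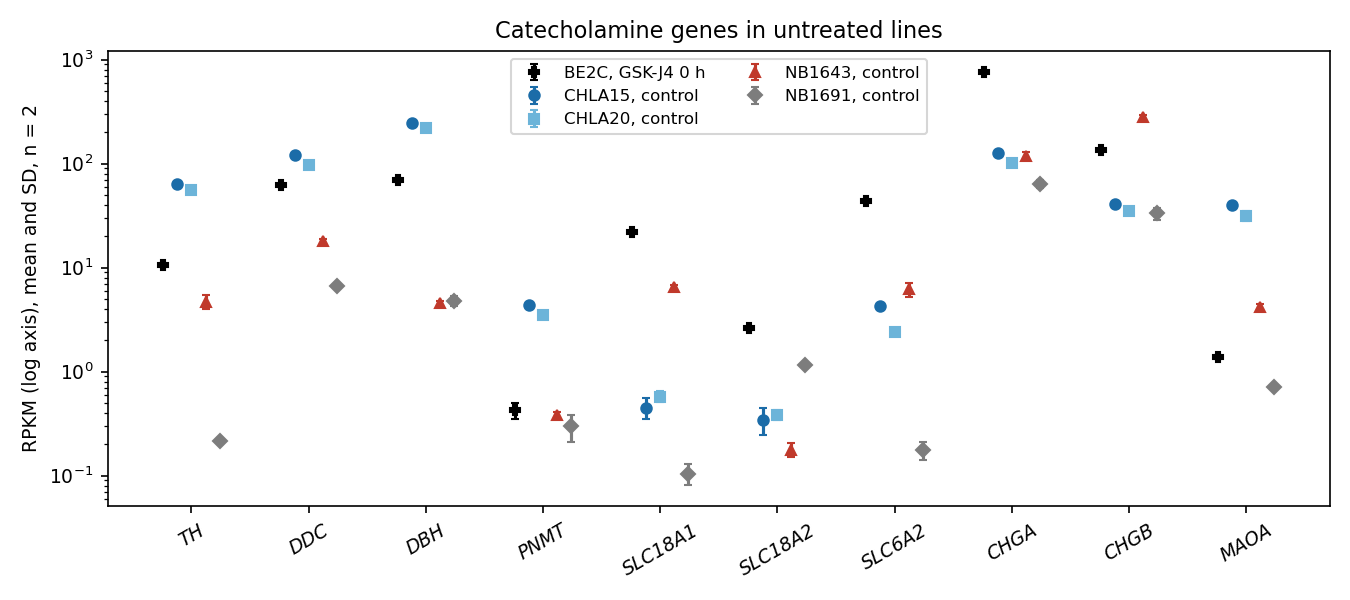
RPKM (log axis) of the 10 genes in untreated libraries, mean with SD bars (n = 2 per line) for BE2C at 0 h of GSK-J4 and for the controls of CHLA15, CHLA20, NB1643 and NB1691. TH spans from 0.216 RPKM in NB1691 to 63.1 RPKM in CHLA15, while CHGA spans from 64.0 to 760 RPKM.

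TH was at 201 and 210 CPM in the CHLA15 controls, 171 and 185 CPM in CHLA20, 16.5 and 14.5 CPM in NB1643, and 0.752 and 0.688 CPM in NB1691. The lines did not overlap, and TH was 13.2-fold lower in NB1643 and 286-fold lower in NB1691 than in CHLA15 (log2 -3.72 ± 0.10 and -8.16 ± 0.14, SE, edgeR adjusted p = 1.43e-16 and 6.11e-20). CHLA15 and CHLA20 did not pass the threshold for TH (log2 -0.21, 95% interval -0.38 to -0.03, edgeR adjusted p = 0.113). DBH followed with 711 and 682 CPM in CHLA15, 601 and 619 CPM in CHLA20, 13.0 and 13.1 CPM in NB1643 and 12.6 and 14.7 CPM in NB1691. DBH was 53.4-fold lower in NB1643 than in CHLA15, and NB1691 against NB1643 did not pass the threshold (log2 0.07, 95% interval -0.14 to 0.29, edgeR adjusted p = 0.513). DDC fell in steps, from 367 and 389 CPM in CHLA15 to 300 and 301 CPM in CHLA20, 57.2 and 58.1 CPM in NB1643 and 21.1 and 22.1 CPM in NB1691, and each neighbour in that order differed.

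PNMT, at 4.05 to 5.32 CPM in the CHLA lines, was at 0.288 to 0.464 CPM in NB1643 and NB1691, counts of 18 to 34, and the latter pair did not pass the threshold (log2 -0.33, 95% interval -0.84 to 0.18, edgeR adjusted p = 0.269). MAOA had the same order, from 513 and 546 CPM in CHLA15 to 9.64 and 9.74 CPM in NB1691, a 54.6-fold difference. SLC6A2 ran differently. It was highest in NB1643, at 54.9 and 48.2 CPM, above CHLA15 (35.6 and 34.8 CPM), CHLA20 (18.2 and 21.0 CPM) and NB1691 (1.70 and 1.28 CPM), and all pairs of lines passed the threshold.

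The vesicular transporters took opposite orders. SLC18A1 was at 26.0 and 27.1 CPM in NB1643, 2.07 and 2.49 CPM in CHLA20, 1.52 and 2.09 CPM in CHLA15 and 0.496 and 0.357 CPM in NB1691. SLC18A2 was highest in NB1691, at 4.98 and 5.04 CPM, and lowest in NB1643, at 0.655 and 0.882 CPM. In these pairs of lines SLC18A1 was 62.8-fold lower and SLC18A2 6.62-fold higher in NB1691 than in NB1643 (edgeR adjusted p = 4.59e-17 and 1.13e-10), while CHLA15 and CHLA20 did not pass the threshold for either gene (edgeR adjusted p = 0.190 and 0.673). Per length, the ratio of SLC18A1 to SLC18A2 was 32.4 and 42.0 in NB1643, 1.25 to 1.78 in the CHLA controls, 0.0748 and 0.105 in NB1691, and 8.14 and 8.71 in BE2C at 0 h.

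Of the chromogranins, CHGA was at 372 to 395 CPM in NB1643 and CHLA15, 308 and 316 CPM in CHLA20 and 190 and 215 CPM in NB1691, and NB1643 against CHLA15 did not pass the threshold (log2 -0.05, 95% interval -0.18 to 0.08, edgeR adjusted p = 0.494). CHGB was at 1280 and 1331 CPM in NB1643 and at 140 to 189 CPM in the other 3 lines, and NB1691 against CHLA20 did not pass the threshold (log2 -0.01, 95% interval -0.15 to 0.13, edgeR adjusted p = 0.889). Over pairs of lines, 5 of 10 members differed between CHLA20 and CHLA15, where 12.4% of all genes did, 9 between NB1643 and CHLA15 (64.6%), 10 between NB1691 and CHLA15 (78%), 10 between NB1643 and CHLA20 (64.5%), 9 between NB1691 and CHLA20 (77.5%), and 8 between NB1691 and NB1643 (80.7%).

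Over the hours with GSK-J4 the 10 genes changed in opposite directions in BE2C cells, with no untreated libraries at the later times. After 24 h, 5 were higher and 5 lower than at 0 h (edgeR quasi-likelihood test, adjusted p under 0.05), beside 27.3% of 17734 genes higher and 28% lower. After 48 h, 3 were higher and 7 lower, beside 37.1% and 34.4%. From 24 h to 48 h, 3 rose and 5 fell, beside 25.9% and 28%. The median log2 fold change of the 10 was -0.07 at 24 h and -0.35 at 48 h, where that of all genes was 0.01 and 0.05. The 7 noradrenergic markers summed to 2286 and 2318 CPM at 0 h, 1582 and 1594 CPM at 24 h and 1482 and 1486 CPM at 48 h, with 6 of 7 lower at 24 h and 7 of 7 at 48 h. The 6 mesenchymal markers summed to 200 and 210, 346 and 358, and 503 and 508 CPM at these times, although of the 4 tested 1 was higher and 2 lower at 24 h (median log2 -0.35), and 2 were higher and 1 lower at 48 h (median log2 -0.07). Their part in the member results was not tested.

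**Figure D2:**
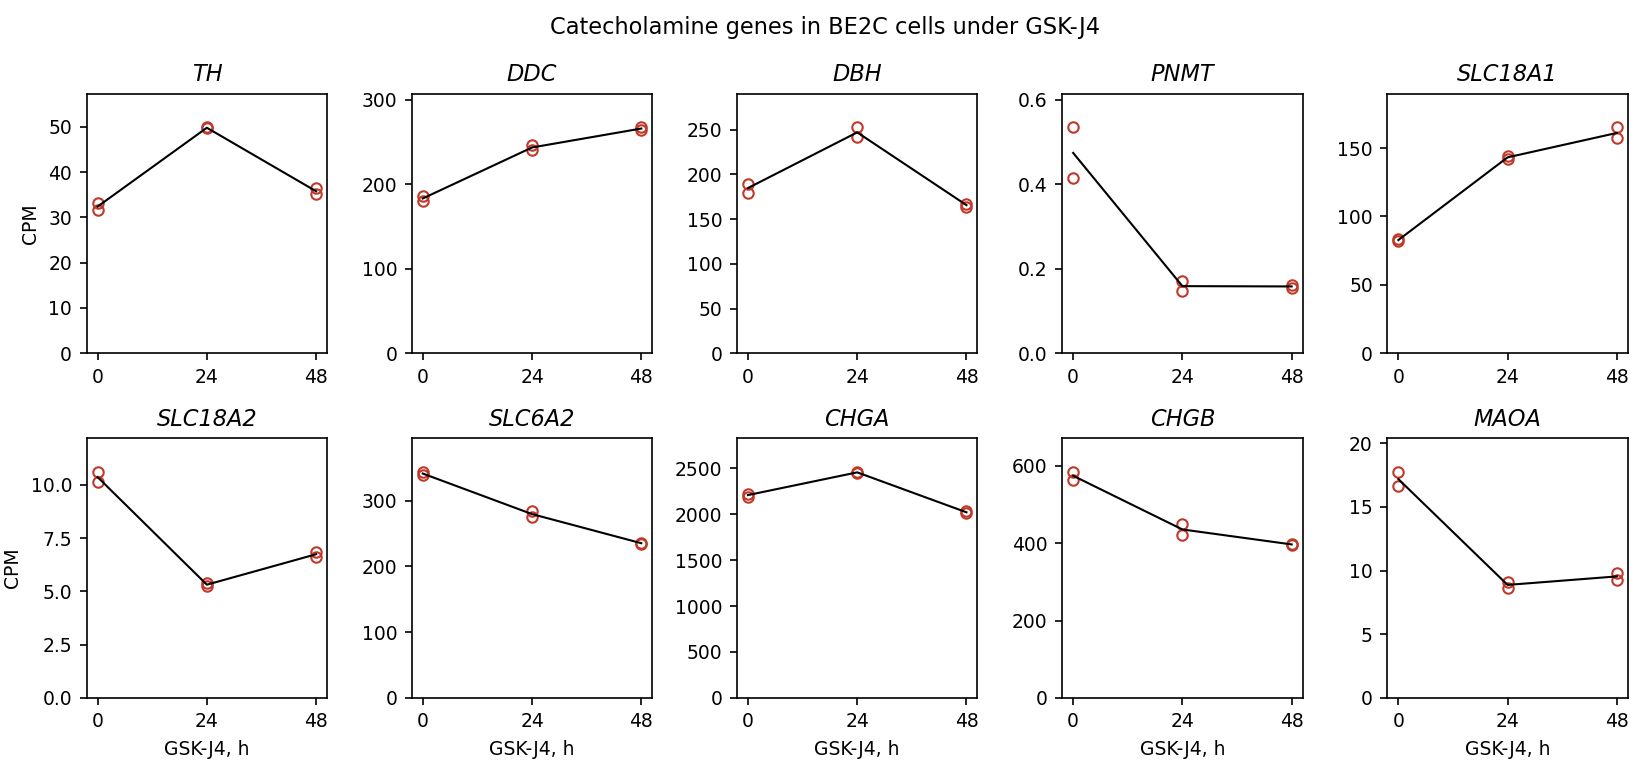
CPM of each gene in BE2C cells against hours of GSK-J4 (circles, 1 per library, 2 per time; lines join the means; each axis starts at 0). TH, DBH and CHGA peak at 24 h, DDC and SLC18A1 are higher at both times, and SLC18A2, SLC6A2, CHGB, MAOA and PNMT are lower at both.

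TH was at 31.6 and 33.1 CPM at 0 h, 49.7 and 49.9 CPM at 24 h and 35.2 and 36.4 CPM at 48 h. All 24 h libraries were above the others, and TH was 1.54-fold higher at 24 h (log2 0.62 ± 0.05, SE, edgeR adjusted p = 1.44e-15) and 1.10-fold higher at 48 h (log2 0.14 ± 0.05, edgeR adjusted p = 0.00817). The 48 h call for TH was lost without 0 h replicate 1 (log2 0.10, edgeR adjusted p = 0.132) or 48 h replicate 2 (log2 0.12, edgeR adjusted p = 0.0860), and with DESeq2 (log2 0.11, DESeq2 adjusted p = 0.109). DBH was at 180 and 190 CPM at 0 h, 241 and 252 CPM at 24 h and 167 and 164 CPM at 48 h. It rose by 0.42 ± 0.03 on the log2 scale at 24 h (edgeR adjusted p = 9.87e-16) and stood 0.16 below 0 h at 48 h (log2 -0.16 ± 0.03, edgeR adjusted p = 2.79e-05), a call that was lost with upper-quartile scaling (log2 -0.05, edgeR adjusted p = 0.187).

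DDC, the enzyme between them, was at 180 and 186 CPM at 0 h, 240 and 246 CPM at 24 h and 264 and 267 CPM at 48 h. It was higher at both times (log2 0.41 ± 0.03 and 0.54 ± 0.03, edgeR adjusted p = 3.97e-16 and 6.72e-21). PNMT was near the limit of detection, at 0.414 and 0.535 CPM at 0 h, 0.148 and 0.170 CPM at 24 h and 0.154 and 0.162 CPM at 48 h, counts of 7 to 19. Its groups did not overlap and it passed the test (log2 -1.56 ± 0.49 at 24 h and -1.57 ± 0.47 at 48 h, edgeR adjusted p = 0.00607 and 0.00303). Those calls were lost without 0 h replicate 2 (edgeR adjusted p = 0.0929 at 24 h and 0.0622 at 48 h), and the one at 24 h also without 24 h replicate 1 (0.0657, edgeR) and with DESeq2 (0.0537, DESeq2).

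The vesicular transporters moved apart. SLC18A1 was at 83.7 and 81.9 CPM at 0 h, 142 and 144 CPM at 24 h and 157 and 165 CPM at 48 h, 1.73-fold and 1.94-fold above 0 h (log2 0.79 ± 0.03 and 0.96 ± 0.03, edgeR adjusted p = 3.21e-24 and 2.97e-28). SLC18A2 was at 10.1 and 10.6 CPM at 0 h, 5.40 and 5.24 CPM at 24 h and 6.87 and 6.62 CPM at 48 h, 1.95-fold and 1.53-fold below it (log2 -0.96 ± 0.10 and -0.62 ± 0.09, edgeR adjusted p = 7.60e-12 and 5.58e-08). Per length, the ratio of SLC18A1 to SLC18A2 went from 8.14 and 8.71 at 0 h to 27.8 and 29.1 at 24 h and 24.1 and 26.3 at 48 h, with no overlap between 0 h and either later time.

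SLC6A2 was at 339 and 344 CPM at 0 h, 276 and 284 CPM at 24 h and 236 and 234 CPM at 48 h. It fell at each step (log2 -0.29 ± 0.03 at 24 h and -0.54 ± 0.03 at 48 h, edgeR adjusted p = 4.80e-12 and 1.35e-21). MAOA was at 17.7 and 16.6 CPM at 0 h, 9.08 and 8.66 CPM at 24 h and 9.26 and 9.82 CPM at 48 h, 1.94-fold and 1.81-fold lower, and the change between the later times did not pass the threshold (log2 0.10, edgeR adjusted p = 0.297). The granins parted at 24 h. CHGA was at 2194 and 2226 CPM at 0 h, 2461 and 2453 CPM at 24 h and 2010 and 2033 CPM at 48 h (log2 0.15 ± 0.03 and -0.13 ± 0.03), and the 48 h call was lost with upper-quartile scaling (log2 -0.02, edgeR adjusted p = 0.535). CHGB was at 565 and 584 CPM at 0 h, 449 and 422 CPM at 24 h and 396 and 398 CPM at 48 h, lower at both times (log2 -0.40 ± 0.03 and -0.53 ± 0.03).

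Other genes of the pathway were taken as lists, whose counts stand beside the shares of all genes given above (27.3% higher and 28% lower at 24 h, 37.1% and 34.4% at 48 h). The list of 7 cofactor genes holds those that make or recycle tetrahydrobiopterin, the cofactor of TH, and GCHFR, which regulates GCH1. Of these 7, 1 rose and 5 fell at 24 h, and 1 rose and 4 fell at 48 h (median log2 -0.26 and -0.48). GCH1, the rate-limiting enzyme of cofactor synthesis, was lower at 24 h (log2 -0.26) and was not called at 48 h (log2 0.04, edgeR adjusted p = 0.482), while SPR, its last step, was lower at both times (log2 -0.58 and -1.08). Of the other catecholamine breakdown genes, 4 of 5 tested fell at each time (median log2 -0.30 and -0.49) and 1 rose at 24 h. Among those that fell was the aldose reductase AKR1B1 (log2 -0.30 and -0.73). MAOB did not reach the expression filter.

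Among 17 tested genes of granules and peptide processing, 4 rose and 6 fell at 24 h, and 8 rose and 9 fell at 48 h. Their median log2 fold change was -0.02 and -0.12, and at 24 h the share called was near that of all genes. SCG2, the granin secretogranin II, rose at both times (log2 1.90 at 48 h), and PAM, which amidates peptides, rose at 24 h (log2 1.01). Of 4 tested peptide cargo genes 1 rose and 3 fell at both times, with a median of -0.55 and -1.12 on the log2 scale and ADM, adrenomedullin, higher (log2 1.23 and 2.71) and NPY, neuropeptide Y, lower (log2 -1.10 and -2.59). The transcription factors of the noradrenergic programme fell in 7 of 11 at 24 h (2 rose) and in 10 of 11 at 48 h (1 rose), with a median log2 fold change of -0.25 and -0.53. REST, which represses neuronal genes and is not an activator of this programme, was the one that rose at 48 h (log2 1.71 and 2.11), and TFAP2B (log2 -1.08 and -1.45) and ISL1 (log2 -0.73 and -1.17) were lower at both times. DDC and SLC18A1 rose in libraries in which most of these factors were lower.

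With palbociclib, between 5 and 8 of the 10 genes rose in each of the 4 lines (edgeR quasi-likelihood test, adjusted p under 0.05). In CHLA15, 5 were higher and 2 lower, beside 14.2% and 15.6% of all 22133 genes tested. In CHLA20, 7 were higher and 1 lower (13.7% and 15.9% of all genes), in NB1643 8 were higher and 0 lower (20.3% and 19.7%), and in NB1691 8 were higher and 0 lower (17.4% and 15.5%). The median log2 fold change of the 10 was 0.28, 0.40, 1.02 and 0.71 in that order, where the median of all genes was 0.02 or less in size. SLC18A1, SLC6A2, CHGB and DDC were higher in all 4 lines, and SLC18A2 was lower in both CHLA lines and higher in NB1691. The noradrenergic markers also summed higher with palbociclib, at 4755 and 4982 CPM beside 3954 and 4158 CPM in CHLA15, 4860 and 4888 beside 3814 and 3825 CPM in CHLA20, 5944 in both libraries beside 4552 and 4801 CPM in NB1643, and 549 and 571 beside 400 and 431 CPM in NB1691. Of these 7 markers, 3 were higher and 1 lower in CHLA15 (median log2 -0.05), 3 higher and 0 lower in CHLA20 (0.11), 6 and 0 in NB1643 (0.36) and 5 and 0 in NB1691 (0.23). Their part in the member results was not tested.

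**Figure D3:**
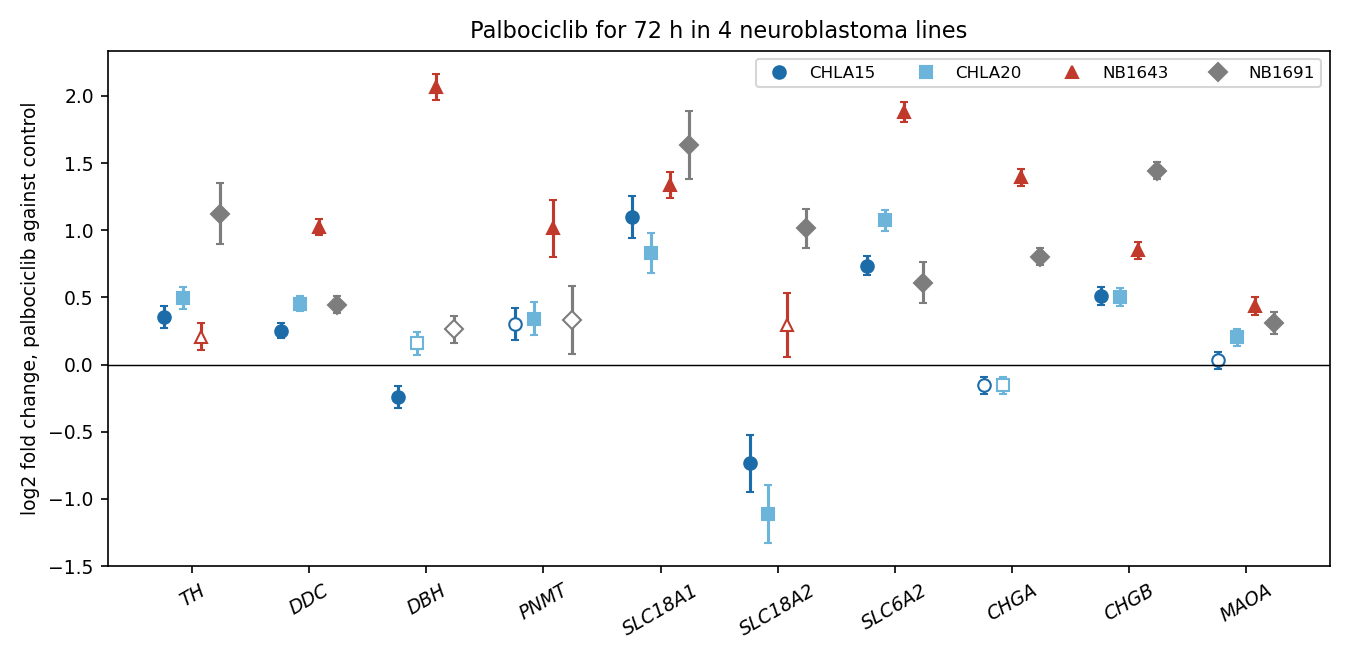
log2 fold change of palbociclib against control with SE bars, from edgeR, for each gene in CHLA15 and CHLA20 (300 nM) and NB1643 and NB1691 (3 μM), with filled symbols where the adjusted p is under 0.05 and open symbols elsewhere. DBH reaches 2.07 in NB1643 and -0.24 in CHLA15, and SLC18A2 runs from -1.11 in CHLA20 to 1.02 in NB1691.

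The response differed between lines, by the line by palbociclib interaction, in 8 of the 10 genes, beside 38% of all genes. With the NB1691 libraries left out, 7 of the 10 differed, without TH (edgeR adjusted p = 0.0765 in place of 0.0288). Of all genes, 4650 were called in that fit, in place of 8403. SLC18A1 and PNMT did not pass (edgeR adjusted p = 0.0697 and 0.110), although SLC18A1 did with DESeq2 (DESeq2 adjusted p = 0.0222). The interaction call of TH was also lost without either NB1643 palbociclib library, either NB1691 control or NB1691 palbociclib replicate 1 (edgeR adjusted p = 0.0526 to 0.124).

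DBH showed the widest difference. In NB1643 it was at 13.0 and 13.1 CPM in controls and 56.0 and 53.0 CPM with palbociclib, 4.19-fold higher (log2 2.07 ± 0.10, SE, edgeR adjusted p = 3.86e-12). In CHLA15 it went from 711 and 682 to 635 and 544 CPM, a small fall (log2 -0.24 ± 0.08, edgeR adjusted p = 0.0354) that was lost without palbociclib replicate 2 (log2 -0.14, edgeR adjusted p = 0.328), control replicate 1 (0.165, edgeR) or control replicate 2 (0.0755, edgeR). In CHLA20 it was at 601 and 619 CPM without and 668 and 693 CPM with palbociclib (edgeR adjusted p = 0.174), and in NB1691 the groups overlapped (log2 0.26, edgeR adjusted p = 0.0528). That change in NB1691 passed in 17 of 25 alternatives, with DESeq2 among them (DESeq2 adjusted p = 0.0200), and was 0.07 on the log2 scale without palbociclib replicate 1 of the line (edgeR adjusted p = 0.708). After palbociclib DBH in NB1643 was still far below its level in the untreated CHLA lines.

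TH was at 259 and 267 CPM with palbociclib in CHLA15 and at 245 and 258 CPM in CHLA20, above every control of the line (log2 0.36 ± 0.08 and 0.50 ± 0.08, edgeR adjusted p = 0.00270 and 0.000122). In NB1691 it was at 1.99 and 1.06 CPM, 2.18-fold above the controls (log2 1.12 ± 0.23), and without palbociclib replicate 1 the change was 0.57 on the log2 scale (edgeR adjusted p = 0.0879). TH in NB1643 did not pass (log2 0.21, edgeR adjusted p = 0.101), but did with DESeq2 (DESeq2 adjusted p = 0.0206). DDC was higher in every line, by 0.25 in CHLA15, 0.45 in CHLA20, 1.03 in NB1643 and 0.45 in NB1691 on the log2 scale, with every palbociclib library above every control of its line. PNMT rose in NB1643 (0.464 and 0.460 CPM in controls, 0.982 and 0.881 CPM with palbociclib, log2 1.02 ± 0.21) and in CHLA20 (log2 0.34, edgeR adjusted p = 0.0419), the latter lost when any of 8 single libraries was left out.

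SLC18A1 rose in every line. It went from 1.52 and 2.09 to 3.29 and 4.31 CPM in CHLA15, from 2.07 and 2.49 to 4.10 and 3.96 CPM in CHLA20, from 26.0 and 27.1 to 66.4 and 67.8 CPM in NB1643 and from 0.496 and 0.357 to 1.18 and 1.47 CPM in NB1691. The changes were 1.10 ± 0.15, 0.83 ± 0.15, 1.34 ± 0.10 and 1.64 ± 0.25 on the log2 scale. In NB1691 that rise started from 27 and 31 counts.

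SLC18A2 went from 1.16 and 1.76 to 0.826 and 0.897 CPM in CHLA15 (log2 -0.74 ± 0.21, edgeR adjusted p = 0.0129) and from 1.72 and 1.48 to 0.733 and 0.749 CPM in CHLA20 (log2 -1.11 ± 0.22, edgeR adjusted p = 0.000580). The fall in CHLA15 was lost without palbociclib replicate 1 (log2 -0.67, edgeR adjusted p = 0.0868) or control replicate 2 (log2 -0.43, edgeR adjusted p = 0.218). In NB1691 it rose from 4.98 and 5.04 to 9.78 and 10.5 CPM (log2 1.02 ± 0.15, edgeR adjusted p = 2.37e-05), and in NB1643 the groups overlapped at 0.655 to 1.09 CPM. The difference between lines had an edgeR adjusted p of 7.49e-06, and 0.0321 without NB1691. Per length, the ratio of SLC18A1 to SLC18A2 with palbociclib was 4.20 to 5.90 in the CHLA lines, beside 1.25 to 1.78 in their controls, and 65.8 and 87.9 in NB1643, beside 32.4 and 42.0. It was 0.127 and 0.147 in NB1691, beside 0.0748 and 0.105.

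**Figure D4:**
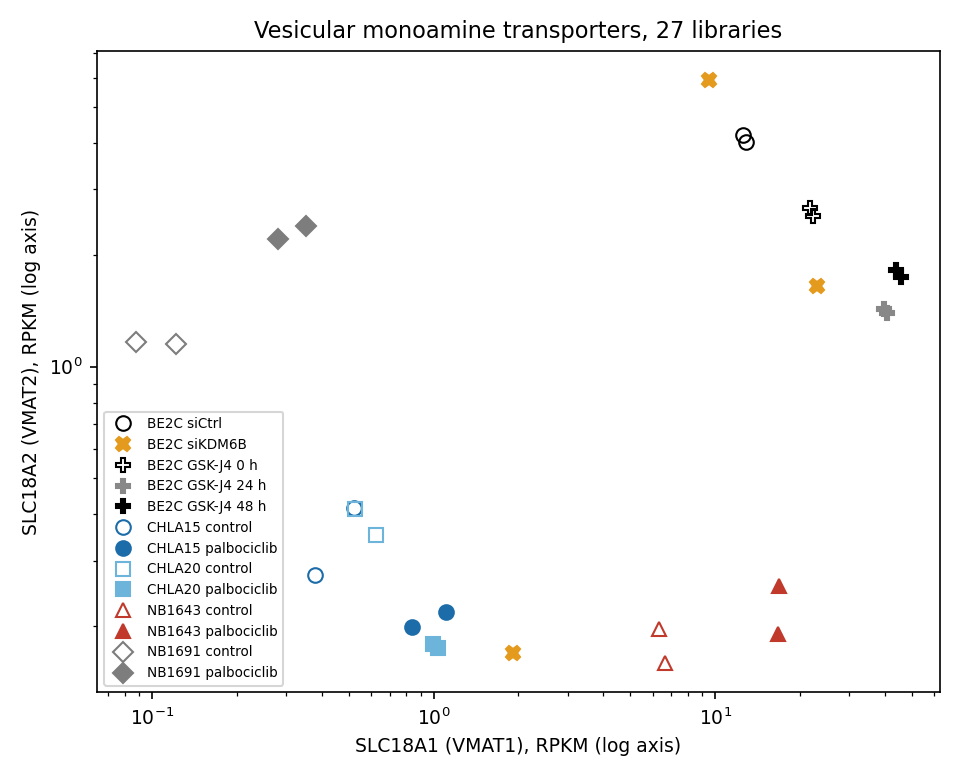
SLC18A2 against SLC18A1 in RPKM (both log axes) in the 27 libraries, with open symbols for controls and filled symbols for palbociclib or later GSK-J4 times (siKDM6B as filled crosses). NB1691 lies at the upper left (SLC18A1 at most 0.353 RPKM), NB1643 at the lower right, and with GSK-J4 the BE2C libraries move right and down.

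SLC6A2 rose from 54.9 and 48.2 to 190 and 190 CPM in NB1643, 3.68-fold (log2 1.88 ± 0.07, edgeR adjusted p = 2.17e-13). It rose from 35.6 and 34.8 to 59.3 and 58.2 CPM in CHLA15 (log2 0.74 ± 0.07) and from 18.2 and 21.0 to 41.7 and 40.7 CPM in CHLA20 (log2 1.07 ± 0.08). In NB1691 it rose from 1.70 and 1.28 to 2.34 and 2.15 CPM (log2 0.61, edgeR adjusted p = 0.00431), a call lost without palbociclib replicate 1 (0.0561, edgeR) or control replicate 2 (0.104, edgeR). MAOA rose in NB1643 (log2 0.44), in NB1691 (log2 0.31, lost without palbociclib replicate 1, edgeR adjusted p = 0.0978) and in CHLA20 (log2 0.20, which was 0.09 without control replicate 2, edgeR adjusted p = 0.330), and was not called in CHLA15 (log2 0.03, 95% interval -0.10 to 0.17).

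CHGA rose from 381 and 372 to 1021 and 960 CPM in NB1643 and from 190 and 215 to 353 and 354 CPM in NB1691 (log2 1.39 ± 0.06 and 0.81 ± 0.06, edgeR adjusted p = 1.87e-12 and 9.16e-09). In the CHLA lines it was slightly lower with palbociclib and did not pass (log2 -0.15 in each, edgeR adjusted p = 0.0671 and 0.0703), although without a filter on low counts both passed (0.0317 and 0.0365, edgeR). CHGB rose in all 4 lines, from 189 and 185 to 270 and 262 CPM in CHLA15 and from 140 and 170 to 417 and 426 CPM in NB1691, where the change was the largest of the 4 (log2 1.45 ± 0.07, beside 0.51, 0.51 and 0.85 in CHLA15, CHLA20 and NB1643). The difference between lines had an edgeR adjusted p of 4.09e-07 for CHGB and 8.03e-11 for CHGA.

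Of 18 genes of granules and peptide processing, 10 rose and 2 fell in CHLA15, 8 and 2 in CHLA20, 12 and 3 in NB1643 and 14 and 1 in NB1691, beside 13.7% to 20.3% of all genes higher and 15.5% to 19.7% lower. Their median log2 fold change was 0.19, 0.05, 0.54 and 0.49 in that order. PCSK1, a prohormone convertase, was lower in CHLA15, CHLA20, NB1643 and NB1691 (log2 -2.51, -3.58, -2.01 and -0.90), and PCSK1N, its inhibitor, was higher in each (log2 0.71, 1.32, 0.71 and 1.59). CYB561, which supplies electrons for DBH inside the granule, rose in NB1643 (log2 2.59 ± 0.14, edgeR adjusted p = 3.04e-11), and its values in the other lines are not given here. Whether its rise went with that of DBH in NB1643 was not tested. In the cofactor list GCH1 was higher in all 4 lines (log2 0.24 to 0.54), while 0 to 2 others rose and 1 to 3 fell. The other breakdown genes had 1 or 2 members higher and 0 to 2 lower in each line. MAOB rose in CHLA15 and CHLA20 (log2 0.67 and 0.69). Of 6 peptide cargo genes, 4 rose and 1 fell in CHLA15 and in CHLA20, 2 rose and 0 fell in NB1643, and 0 rose and 3 fell in NB1691. NPY was among those that rose in both CHLA lines (log2 1.67 and 1.69). Of the 12 transcription factors, GATA2 rose in all 4 lines (log2 0.30 to 0.68), REST fell in CHLA15, CHLA20 and NB1643 (log2 -0.37 to -0.58), and 2 rose and 5 fell in CHLA15, 2 and 3 in CHLA20, 7 and 2 in NB1643 and 6 and 1 in NB1691, with medians of -0.17, -0.05, 0.35 and 0.15 on the log2 scale.

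In the libraries labelled siKDM6B, KDM6B itself was at 8.99, 7.11 and 8.26 CPM with N1, N2 and N33. It was at 6.47 and 8.76 CPM in siCtrl, so its RNA was not lower. The paper reports from immunoblots that siRNAs depleted KDM6B and that MYCN was then reduced. Counts of RNA do not measure protein. Of the 10 genes, 0 passed the edgeR test, as did 0% of 17472 genes in each direction, although 1615 genes had an unadjusted p under 0.05, MAOA among them. DESeq2 and limma-voom also called 0 of the 10, while DESeq2 called 164 of all genes. The 3 libraries went different ways. For TH, the siCtrl libraries had 11.5 and 10.7 CPM, N1 had 30.8 CPM, N2 had 6.25 CPM and N33 had 2.42 CPM. For DBH they had 50.6 and 59.1 CPM, and N1, N2 and N33 had 124, 31.5 and 9.87 CPM. N1 was thus above, and N2 and N33 below, both controls for each gene.

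**Figure D5:**
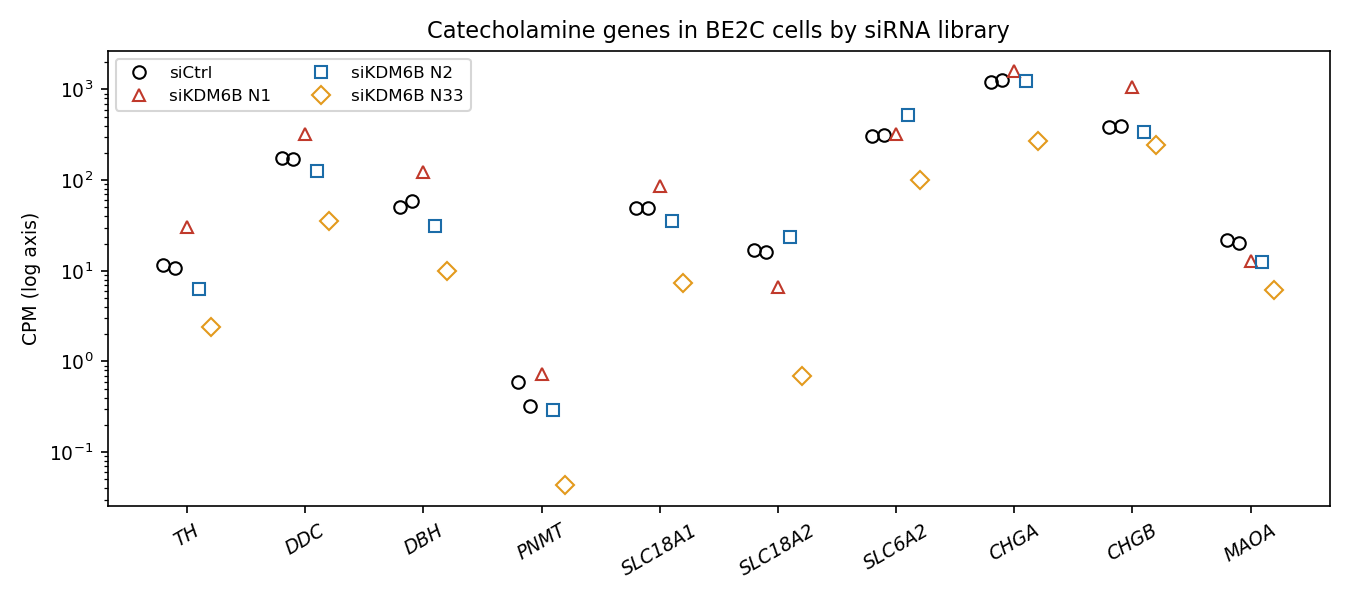
CPM (log axis) of the 10 genes in the 5 siRNA libraries of BE2C cells (circles siCtrl, triangle N1, square N2, diamond N33). N1 lies above both controls for all genes except SLC18A2 and MAOA, N33 lies lowest for all 10, and MAOA is lower with all 3 siRNAs.

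DDC and SLC18A1 were ordered in the same way, with DDC at 176 and 170 CPM in siCtrl and 325, 126 and 35.9 CPM with N1, N2 and N33, and SLC18A1 at 48.9 and 49.8 CPM and then 86.9, 35.6 and 7.36 CPM. SLC18A2 ran opposite for N1 and N2, at 17.2 and 16.3 CPM in siCtrl and 6.55, 23.3 and 0.686 CPM with N1, N2 and N33. Per length, the ratio of SLC18A1 to SLC18A2 was 3.00 and 3.22 in siCtrl, 14.0 with N1, 1.61 with N2 and 11.3 with N33.

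MAOA went from 21.8 and 20.4 CPM (siCtrl) to 12.9, 12.6 and 6.13 CPM (N1, N2 and N33) and was the member whose groups did not overlap (95% interval of the log2 fold change -1.89 to -0.11, edgeR adjusted p = 0.523). In the same order, CHGA had 1200 and 1262 CPM against 1581, 1237 and 272 CPM, and CHGB 387 and 397 CPM against 1077, 341 and 244 CPM. SLC6A2 had 305 and 313 CPM against 325, 528 and 101 CPM. The log2 95% intervals of the group differences were wide, from -2.04 to 2.54 for TH and from -2.17 to 2.19 for DBH. No difference of the group was detectable at this spread, which is not the replicate error of any single siRNA. Without the library labelled N33 there were also 0 calls, and without N1 the log2 fold change of TH went from 0.25 to -1.35.

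Over the 8 groups of the palbociclib experiment, which share 4 lines in pairs, mean log2 CPM of TH went with that of MAOA (Pearson r = 0.997) and DDC (0.986), and that of DBH with PNMT (0.992). CHGA did not follow the enzymes (r = 0.124 with TH) and was closer to SLC18A1 (0.819) and CHGB (0.807), while SLC18A2 ran against SLC6A2 (-0.907). Without the NB1691 groups, over 6 groups of 3 lines, TH still went with MAOA (0.995) and DDC (0.969) and DBH with PNMT (0.988), while CHGA ran against TH (-0.674), SLC18A2 ran less closely against SLC6A2 (-0.512), and SLC18A1 went with CHGB (0.990) and against TH (-0.927). The genes most like TH over all 8 groups, among 16973 compared, were EFNA2, ANKLE1 and SLC8A2 (r = 0.998 to 0.999), those most like DBH were PLEKHH3, FLOT2 and ZNF211 (0.994 to 0.995), and those most like SLC18A2 were STC2, FBLN7 and MRS2 (0.986 to 0.990). For DDC they were ZNF428, NAXD and CTD-2350C19.2, for PNMT FOXO3B, ZNF211 and IRF2BP1, for SLC18A1 RPL32, AC004453.8 and RPL29, for SLC6A2 RP11-481F24.3, AP2A2 and PKD1, for CHGB RP11-541N10.3, RPL27A and RPL5P4, and for MAOA LPAR1, DISP3 and MTPN. CHGA had the weakest best match, AP3S2 at 0.972. Without NB1691, among 15307 genes, 2 of these 30 nearest genes were still among the 3 nearest of their member (RP11-481F24.3 for SLC6A2 and AP3S2 for CHGA). The ranks thus depend on the groups used. The same genes mostly kept a high r with their member, but they were chosen over groups that include these 6. Their high r is thus partly fixed by that choice. Without NB1691, EFNA2 was at 0.999 with TH and RPL5P4 at 0.998 with CHGB. The lowest was MRS2 with SLC18A2, at 0.802 in place of 0.986. The 8 groups come from 4 lines, so the points are not independent.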

How the data were processed

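Total RNA of neuroblastoma cell lines had been sequenced as 100 bp paired-end reads. The deposited values are whole-number read counts per gene, which the authors obtained with STAR 2.5.3a on GRCh37 and HTSeq, per the submitters' processing notes. The strand setting is not given in the sources used here. Each BE2C library came as 2 files, which differed little (chi-square per degree of freedom 1.48 to 1.65 within libraries, 2.38 to 6.07 between replicates) and were summed, giving 27 libraries.

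Counts were filtered with edgeR 4.0.16 (R 4.3.3), leaving 17472 genes in the siRNA, 17734 in the GSK-J4 and 22133 in the palbociclib experiment, scaled by TMM and tested per experiment with the quasi-likelihood F test, with Benjamini-Hochberg adjustment over all genes tested and a threshold of 0.05. The scripts were tested on simulated data. RPKM used the exon lengths of the GRCh37 annotation. Alternatives were DESeq2 1.42.0, limma-voom (limma 3.58.1), other scalings and filters, a minimum fold, each file as a sample, a replicate block and leaving out libraries. Leaving out all NB1691 libraries, in the fits and in the correlations over groups, was chosen after seeing the data. Figures used Python 3.11.15 and matplotlib 3.10.9.

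Named genes were the members, genes of the cofactor, breakdown and transcription factor lists, and, from the other lists, the called genes with the widest change and groups that did not overlap. Some genes of these lists enter the counts but are not reported singly here. KDM6B, MYCN and marker genes served as checks of the labels. The members and lists were chosen with earlier results of these data known. Same-numbered replicates were checked for pairing and did not deviate together.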

Additional observations from a re-analysis of the deposited data

Results flagged for a closer look

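The response to palbociclib differed between the 4 lines for 8 genes in the test of the line by palbociclib interaction, beside 38% of all genes. The edgeR adjusted p was 8.03e-11 for CHGA, 4.19e-10 for DBH, 2.76e-07 for SLC6A2, 4.09e-07 for CHGB, 3.71e-06 for DDC, 7.49e-06 for SLC18A2, 0.0110 for MAOA and 0.0288 for TH. Line, dose and MYCN status cannot be told apart.

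Levels at 48 h of GSK-J4 differed from those at 24 h for 8 genes, tested directly between these times with edgeR. Of all genes, 25.9% were higher and 28% lower in that test. On the log2 scale the difference was -0.58 for DBH, -0.48 for TH, -0.28 for CHGA, -0.25 for SLC6A2, -0.13 for CHGB, 0.13 for DDC, 0.17 for SLC18A1 and 0.35 for SLC18A2. Both times share the 0 h libraries.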

How the results depend on the processing

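The number of the 10 genes called moved with a minimum log2 fold change of 0.5, to 5 at 24 h and 1 between 24 h and 48 h of GSK-J4, and to 4 in CHLA15 and 4 in CHLA20, and with each file as a sample in the siRNA experiment, to 1. Leaving out single libraries gave 0 to 0 calls with siKDM6B, 9 to 10 at 24 h, 9 to 10 at 48 h, 8 to 8 between them, 5 to 9 in CHLA15, 6 to 9 in CHLA20, 8 to 9 in NB1643, 5 to 9 in NB1691 (5 without palbociclib replicate 1), 7 to 9 for the interaction and 10 to 10 between lines.

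Directions turned with siKDM6B under limma-voom for TH (-0.53), DBH (-0.71) and SLC6A2 (-0.25), and without a filter for DBH (-0.029). Left-out libraries gave -1.35 to 0.74 for TH, -1.40 to 0.51 for DBH, -1.09 to 0.38 for DDC, -1.40 to 0.16 for PNMT, -1.20 to 0.31 for SLC18A1, -0.53 to 0.47 for SLC6A2, -0.70 to 0.20 for CHGA and -0.42 to 0.86 for CHGB. For the uncalled PNMT between 24 h and 48 h of GSK-J4, library totals gave 0.011, upper-quartile scaling 0.052, the replicate block 0.0040 and left-out libraries -0.116 to 0.087. For the uncalled MAOA in CHLA15, library totals gave -0.00121 and left-out libraries -0.022 to 0.083. The cause was not tested.

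The deviations of same-numbered replicates correlated at 0.0037 to 0.0183 over 3 pairs of GSK-J4 groups. Over 28 pairs of palbociclib groups they correlated at -0.121 to 0.0876. No strong common shift was seen, but this cannot show that such replicates share no batch or culture, which the labels do not state. The replicate block gave 10 calls at 24 h, 10 at 48 h, 8 between them, 6 in CHLA15, 7 in CHLA20, 8 in NB1643, 8 in NB1691, 9 for the interaction and 10 between lines. It lost DBH in CHLA15 (edgeR adjusted p = 0.0508) and PNMT in CHLA20 (0.0527, edgeR) and added the interaction of SLC18A1 (0.0497, edgeR). For the siRNA experiment alone, no paired analysis was possible because its libraries share no numbers across groups.

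Over all genes, a minimum log2 fold change of 0.5 gave 3855 calls in place of 9802 at 24 h, 7487 in place of 12678 at 48 h, 3111 in place of 9551 between them, 2600 in place of 6598 in CHLA15, 2659 in place of 6544 in CHLA20, 4292 in place of 8841 in NB1643 and 3033 in place of 7269 in NB1691. With siKDM6B, 84 genes were called without a filter and 2354 with each file as a sample. Upper-quartile scaling moved the median of all genes at 48 h from 0.05 to 0.16 and the share of higher calls from 24 h to 48 h from 48.1% to 58.1% (62.7% with the minimum fold), and library totals moved that share in NB1691 from 52.9% to 35.9%. DESeq2 lost PNMT at 24 h (DESeq2 adjusted p = 0.0537), TH at 48 h (0.109, DESeq2) and PNMT in CHLA20 (0.0970, DESeq2). Leaving out the NB1691 libraries, chosen after seeing the data, called 4650 of all genes for the interaction. Counts of 2 to 34 limit PNMT in BE2C, NB1691 and the NB1643 controls.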

Other observations

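Of 6 tested catecholamine receptors, 3 rose and 2 fell after 24 h of GSK-J4 and 4 rose and 1 fell after 48 h (edgeR adjusted p under 0.05), beside 27.3% and 28% of all genes at 24 h and 37.1% and 34.4% at 48 h. Of 2 tested other monoamine transporters, 2 fell at 48 h, SLC29A4 by 1.21 and SLC6A3 by 1.10 on the log2 scale. Of 3 tested cholinergic genes, 2 rose with palbociclib in CHLA15, 2 in CHLA20, 1 in NB1643 and 2 in NB1691, and 0 fell in any of these lines, beside 13.7% to 20.3% of all genes higher. With so few genes tested, these counts are a description.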
